A study of Danio rerio with 6 samples.

Results

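Mitochondrial ribosomal protein genes, the nuclear genes whose products build the ribosome inside mitochondria, were compared between control MO and *nlrc3* MO samples of zebrafish embryos. The members were all genes of the expression table whose symbol begins with mrpl or mrps followed by a digit, which gave 74 of 32057 genes. By symbol, 46 of them belong to the large subunit (*mrpl* genes) and 28 to the small subunit (*mrps* genes). The rule used names alone and no measured value. The study collected EGFP+ cells from embryos labelled 28 hpf, although figure captions of the paper give an earlier age for these RNA-seq data. The embryos were Tg (*fli1a*: EGFP), in which EGFP is expressed from the promoter of *fli1a*, an endothelial gene. Both groups carried this transgene and both were injected with a splice-modifying morpholino (MO), a standard control MO in 3 samples and an *nlrc3* MO in 3 samples. The *nlrc3* MO was injected at a higher concentration than the control MO, so the target of the MO and its dose cannot be told apart. The paper calls the 3 samples of each group biological replicates, without stating the number of embryos behind a sample or whether the replicates came from separate clutches, and p-values measure the spread between these samples.

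The mitochondrial ribosome translates the few proteins that the mitochondrial genome encodes, which are core subunits of the respiratory chain and of ATP synthase. Its RNA comes from the mitochondrial genome, whereas its proteins are made in the cytosol from nuclear genes and imported. The small subunit holds the mRNA and decodes it, and the large subunit joins the amino acids and releases the growing chain through an exit tunnel that faces the inner membrane. Many of its proteins have counterparts in bacterial ribosomes, and others are found only in mitochondria.

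Every member was detected in each of the 6 samples and all 74 passed the filter on low values (at least 0.5 FPKM in at least 3 samples), which 15155 genes of the table passed. FPKM count fragments by transcript length and by the fragments mapped in a sample, so that levels can be set side by side between genes. The gene ontology columns of the table assigned 51 members to the mitochondrial ribosome and 57 to a structural part of a ribosome. The term mitochondrial appeared in the assignments of 65 members, and none was without an assignment. Of the 74 genes, 48 had a single transcript in the table. The symbols *MRPL49* and *MRPS12*, written in capitals in the table, fell outside the rule and are given separately.

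The samples of the *nlrc3* MO group differed from the control MO samples in more than these genes. The summed FPKM over all genes was 524846 to 525567 with the control MO and 678620 to 687387 with the *nlrc3* MO. Globin genes, 14 in number, made up 15.6% to 15.7% of it with the control MO and 34.5% to 34.8% with the *nlrc3* MO. Markers of other cells moved with the groups, in that 11 of 11 erythroid genes and 8 of 9 myeloid genes were higher and 11 of 12 neural crest genes lower in the *nlrc3* MO samples. The summed neural crest markers were at 649.07 to 665.82 FPKM against 11.99 to 13.41 FPKM. The summed erythroid markers were at 19634.8 to 19824.3 FPKM against 57713 to 59445.1 FPKM. Endothelial markers were present, with all 16 listed summed at 937.68 to 949.59 FPKM against 656.86 to 682.56 FPKM. Of the 15 that were tested, 8 fell (53.3%), *fli1a* among them, while 2 rose (13.3%). Over all tested genes, 42.9% were lower and 20.2% higher. The median log2 fold change was -0.14 for the endothelial markers and -0.22 for all tested genes. Under TPM scaling 15 endothelial markers fell, and under median-of-ratios scaling 6 fell and 5 rose, both scalings being explained below. Of neural markers 6 of 9 were lower and 0 higher, of epidermal markers 1 of 10 lower and 4 higher, and of muscle markers 3 of 9 lower and 3 higher. The part of these other cells in the results below was not tested. Expression of *nlrc3* itself was lower in the group labelled with its MO, at 0.82, 0.70 and 1.09 FPKM with the control MO and 0.26, 0.15 and 0.17 FPKM with the *nlrc3* MO.

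The mitochondrial ribosomal protein genes were expressed above most tested genes and at narrowly spread levels. Over all tested genes the mean control MO level had a median of 5.49 FPKM and an upper quartile of 15.2 FPKM. The lower quartile of the members was 16.9 FPKM. In the control MO samples the mean level of a member had a median of 24.8 FPKM, from 4.05 FPKM for *mrpl22* to 56.7 FPKM for *mrpl13*, which is 14 times as high. The median was 25.1 FPKM for the large subunit and 22.8 FPKM for the small subunit. A mean of more than 20 FPKM was reached by 44 members with the control MO and by 50 with the *nlrc3* MO. Apart from that of *mrps36*, described below, the products of these genes enter the mature ribosome in nearly equal copy number. Among them the stalk protein of *mrpl12* is the known exception. The span of the RNA levels is thus a description of the transcripts alone. The order of the members was similar in both groups, with a Spearman correlation of 0.920 across the 74 group means, which share the gene lengths and the libraries of each group. Between single samples of different groups the correlation was 0.882 to 0.910. Within a group it was higher, at 0.958 to 0.966 with the control MO and 0.962 to 0.971 with the *nlrc3* MO. For a single member the replicates lay close together, with a median coefficient of variation of 6.60% with the control MO and 6.87% with the *nlrc3* MO. The widest spread belonged to *mrpl44*, with 12.93, 22.33 and 21.54 FPKM under the control MO.

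**Figure D1:**
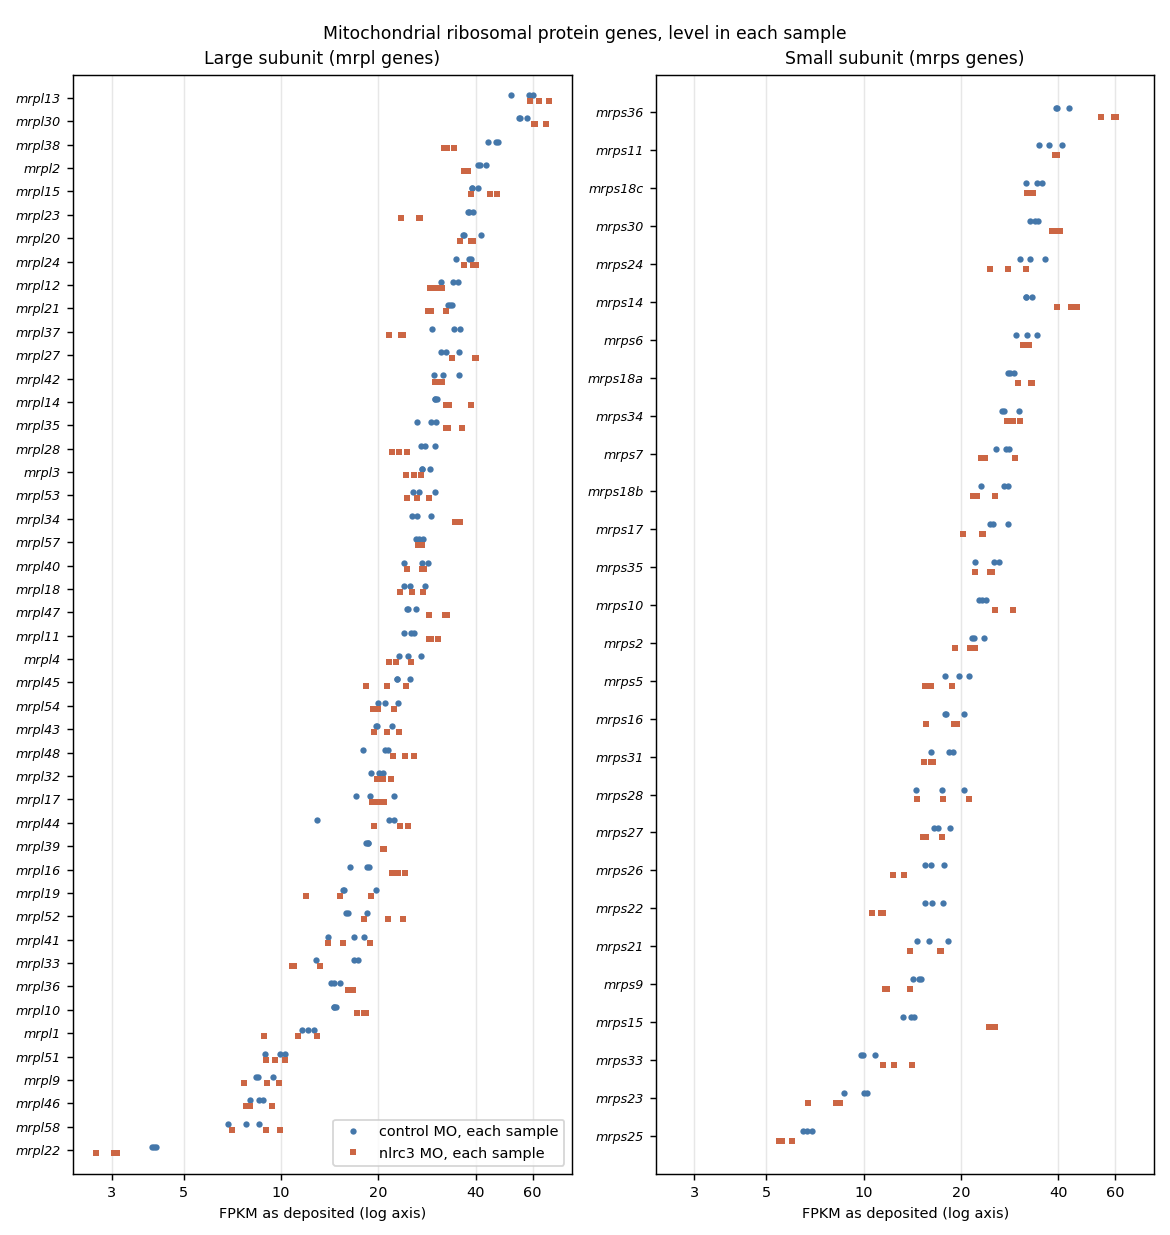
Level of each of the 74 mitochondrial ribosomal protein genes in each sample, as FPKM on a log axis, large subunit on the left and small subunit on the right, ordered by the mean of the control MO samples. Circles are the 3 control MO samples and squares the 3 *nlrc3* MO samples; for most genes they lie together, and the squares of *mrps15* stand clear to the right of its circles.

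On FPKM as deposited, the summed level of the whole set was nearly the same in both groups. The large subunit genes summed to 1157.6, 1180.61 and 1165.49 FPKM with the control MO and to 1154.67, 1194.56 and 1181.04 FPKM with the *nlrc3* MO. These ranges overlapped. The small subunit genes summed to 647.29, 636.42 and 649.13 FPKM with the control MO and to 660.57, 673.82 and 661.58 FPKM with the *nlrc3* MO. Here all 3 *nlrc3* MO samples lay above all 3 control MO samples, by a small margin, but this separation did not hold for the small subunit as placed in mammalian structures, without *mrps36*, *mrps30* and *mrps18a*, whose genes summed to 533.84 to 548.78 FPKM and 526.64 to 549.62 FPKM. The large subunit held 64.1% to 65.0% of the members' sum with the control MO and 63.6% to 64.1% with the *nlrc3* MO. As a share of all FPKM the members made up 0.344% to 0.346% under the control MO and 0.264% to 0.275% under the *nlrc3* MO, without overlap. With the globin genes left out of the total, the share was 0.407% to 0.410% and 0.403% to 0.422%, and the groups overlapped. In bulk samples of this kind, fewer cells of a type and less RNA per cell cannot be told apart.

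Single genes of the set changed in both directions by small amounts. With limma on log2(FPKM + 0.1) and Benjamini-Hochberg adjustment over all 15155 tested genes, 14 of the 74 members were lower and 19 higher in the *nlrc3* MO samples at an adjusted p under 0.05, and 41 did not pass, a split that turned with the scaling of the libraries (58 lower and 1 higher, or 4 lower and 35 higher, as given below). Without control MO replicate 3, 9 were lower and 14 higher. Over all tested genes, 42.9% were lower and 20.2% higher by the same rule, against 18.9% and 25.7% of the members. On FPKM as deposited, the share of members that fell was thus under the background and the share that rose a little above it. Under TPM scaling these shares turned, with 78.4% of members lower against 64.1% of all tested genes and 1.35% higher against 9.13%. The median log2 fold change of the members still lay above that of all tested genes there, at -0.39 against -0.59. When a fold change above 2 or below 0.5 was also required, no member was called in either direction, where 20.4% of all tested genes were called lower and 4.89% called higher. The *nlrc3* MO samples lay wholly below the control MO samples for 14 members and wholly above them for 18, whereas 46.1% of all tested genes lay wholly below and 22.8% wholly above. All but 5 members, 69 of 74, had a log2 fold change of less than 0.5 in size. The standard error of the log2 fold change, which covers the spread between replicates, had a median of 0.070 over the members and ranged from 0.037 to 0.21. It does not cover the choice of scaling. That choice moved the median log2 fold change of the members from -0.016 to -0.39 (TPM) or to 0.20 (median of ratios). Among the 41 members that did not pass, the 95% interval reached 0.18 to either side in the median and 0.48 in the widest case, *mrpl44*.

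On FPKM as deposited, both subunits held genes that rose and genes that fell. Of the large subunit genes 8 were lower and 12 higher, of 46 (17.4% and 26.1%). Of the small subunit genes 6 were lower and 7 higher, of 28 (21.4% and 25%). Over all tested genes 42.9% were lower and 20.2% higher. The small subunit count of lower genes was 3 without control MO replicate 3 and also without *nlrc3* MO replicate 3. Under TPM scaling 36 large subunit genes were lower and 0 higher, and 22 small subunit genes were lower and 1 higher. Under the median of ratios these counts were 3 and 24, and 1 and 11. On FPKM as deposited, the median log2 fold changes of the large and small subunits were 0.0017 and -0.057. The median over all tested genes was -0.22, with the middle 50% of genes between -0.85 and 0.22, whereas the middle 50% of the members lay between -0.15 and 0.16. Relative to the median gene, the large subunit therefore lay 0.22 higher and the small subunit 0.17 higher, and 62 of the 74 members lay above it. The difference between the subunits was not tested.

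**Figure D2:**
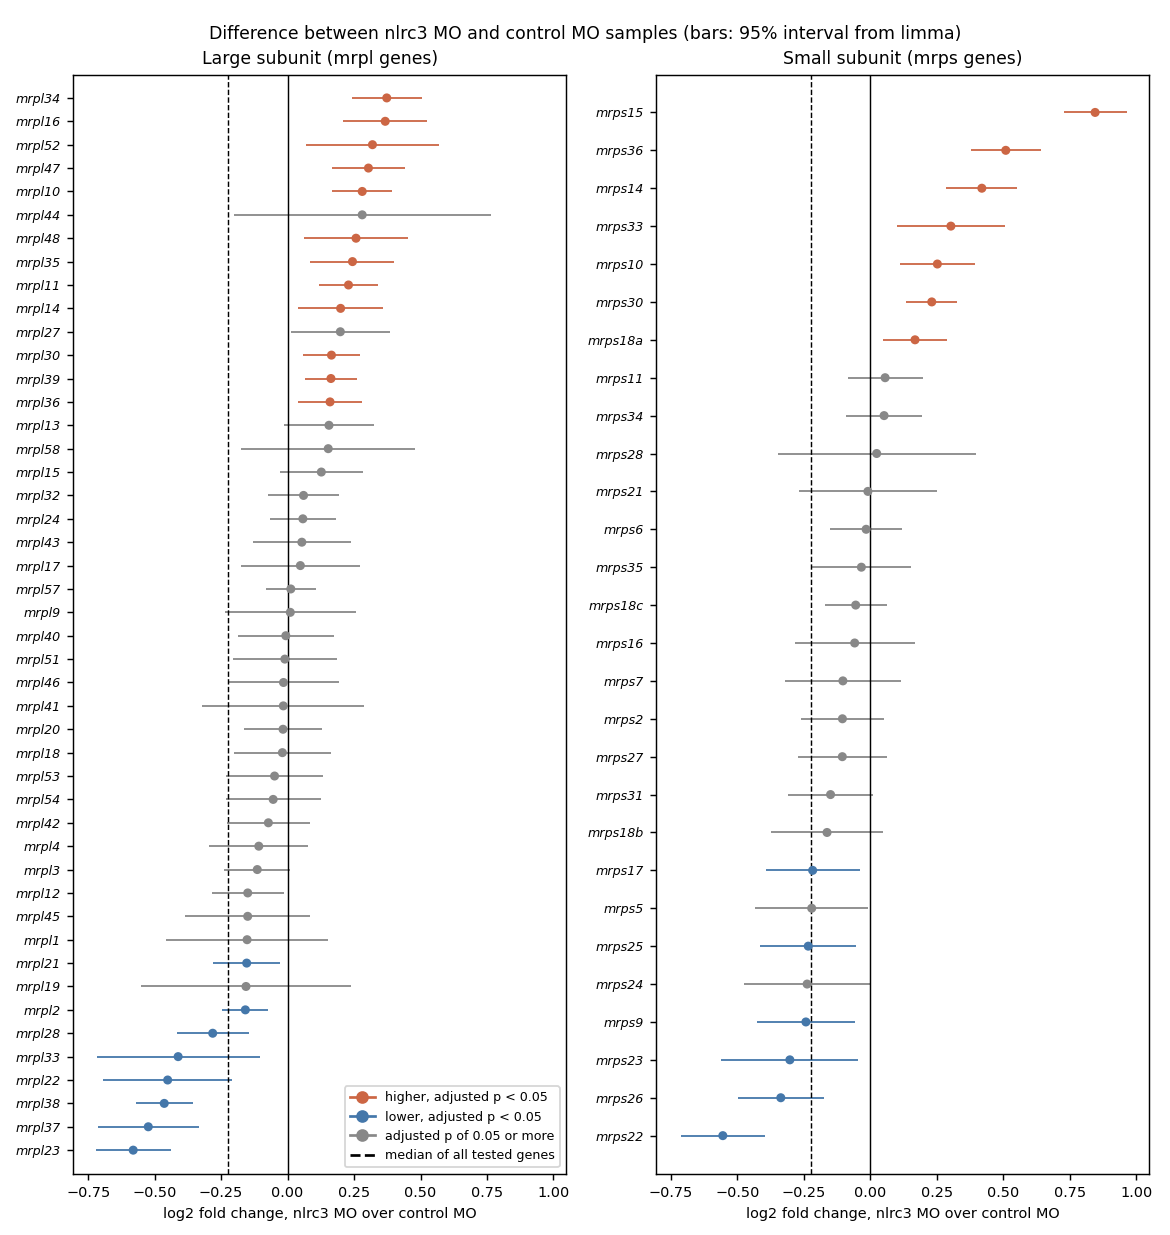
Difference between *nlrc3* MO and control MO samples for each member, as the log2 fold change with its 95% interval from limma (bars), large subunit on the left and small subunit on the right. Coloured points have an adjusted p under 0.05, the solid line marks no difference and the dashed line the median of all tested genes, -0.22; nearly all points lie between -0.5 and 0.5, and most lie to the right of the dashed line.

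Which sign a small difference takes depends on how the libraries are brought to a common scale, because the summed FPKM differed between the groups. When each sample was rescaled to the same total (TPM), the median of all tested genes moved to -0.59, and 58 members were lower and 1 higher, where 64.1% of all tested genes were lower and 9.13% higher. When samples were scaled by the median of ratios, the median of all tested genes moved to -0.013, and 4 members were lower and 35 higher (5.41% and 47.3% of members), where 32.5% of all tested genes were lower and 30.6% higher. With the globin genes taken out and each sample rescaled to the same total, 15 members were lower and 19 higher, close to the result on FPKM as deposited. A scaling moves all genes of a sample alike, so the gap between the medians of the members and of all tested genes is fixed apart from the pseudocount. Under these 4 scalings the same side of the threshold was kept by *mrpl23*, *mrpl37*, *mrpl38* and *mrps22*, which were lower in each, and by *mrps15*, which was higher in each. A further 2 members passed under none of the 4, and the other 67 passed under some scalings only or changed direction.

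**Figure D3:**
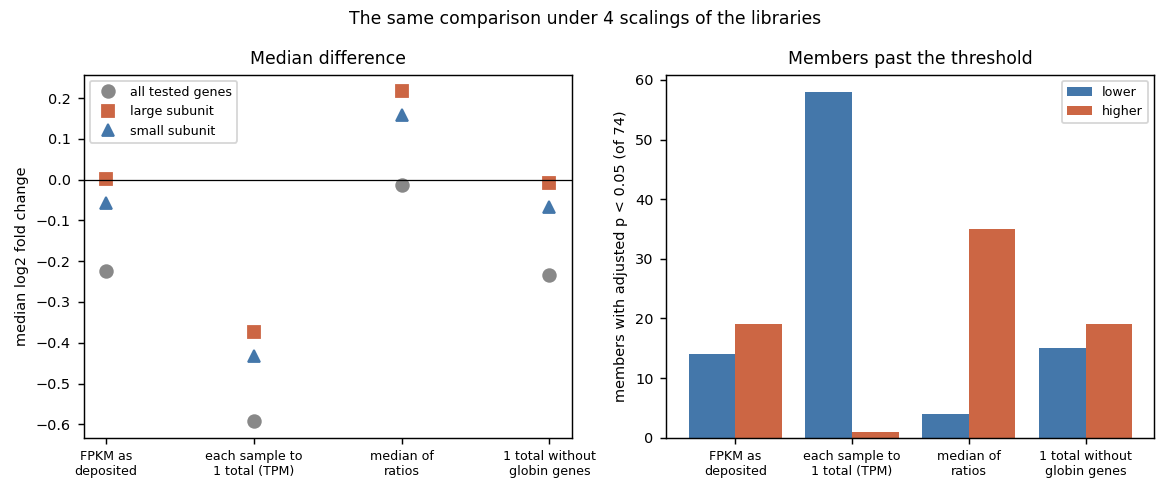
Left, the median of the log2 fold changes over all tested genes (circles), over the large subunit (squares) and over the small subunit (triangles) under 4 scalings of the libraries; a scaling shifts the 3 medians together. Right, the number of the 74 members with an adjusted p under 0.05, lower and higher; it runs from 58 lower and 1 higher under TPM scaling to 4 lower and 35 higher under the median of ratios.

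The clearest single difference was in *mrps15*, whose product is the counterpart of a bacterial small subunit protein that binds ribosomal RNA early in assembly. With values for the control MO given first here and below, its level was 14.01, 13.19 and 14.34 FPKM with the control MO and 24.48, 25.42 and 24.96 FPKM with the *nlrc3* MO. The 3 *nlrc3* MO samples were all well above the 3 control MO samples and the spread within each group was far smaller than the gap. The log2 fold change was 0.85 (SE 0.051, n = 3 per group, limma adjusted p = 5.02e-06), and it ranged from 0.47 under TPM scaling to 1.06 under the median of ratios. This made it the member with the largest difference, 1.07 above the median gene, and under the median of ratios it was the only member to pass the 2-fold limit.

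Next in the small subunit stood *mrps36* and *mrps14*. The product of *mrps36* carries the name of a ribosomal protein, but in mammals it is now placed in the 2-oxoglutarate dehydrogenase complex of the citric acid cycle. It was at 43.21, 39.62 and 39.34 FPKM with the control MO and at 60.47, 54.22 and 59.40 FPKM with the *nlrc3* MO. The *nlrc3* MO samples were all higher, with a log2 fold change of 0.51 (SE 0.056, limma adjusted p = 1.42e-04), which under TPM scaling was 0.13 and did not pass (adjusted p = 0.0602). For *mrps14*, a protein of the head of the small subunit, the values were 31.65, 33.07 and 31.70 FPKM against 39.73, 43.75 and 45.78 FPKM. The groups did not overlap and the log2 fold change was 0.42 (SE 0.057, limma adjusted p = 4.30e-04), against 0.042 under TPM scaling.

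Smaller rises in the small subunit were seen for 4 further genes, and for all of them the sign turned under TPM scaling. *mrps33*, a mitochondria-specific protein of the head, was at 9.98, 10.82 and 9.83 FPKM against 11.45, 14.06 and 12.45 FPKM (log2 fold change 0.30, limma adjusted p = 0.0175). *mrps10*, also of the head, was at 23.87, 22.72 and 23.30 FPKM against 25.49, 28.99 and 28.95 FPKM (0.25, limma adjusted p = 0.0077). In neither gene did the groups overlap, although the lowest *nlrc3* MO sample came close to the highest control MO sample. The remaining 2, *mrps30* and *mrps18a*, are named for the small subunit but sit in the large subunit of the mammalian ribosome. *mrps30* was at 34.53, 33.82 and 32.68 FPKM against 40.45, 40 and 38.19 FPKM (0.23, limma adjusted p = 0.0018). *mrps18a* was at 28.00, 29.14 and 28.33 FPKM against 33.01, 29.98 and 33.17 FPKM (0.17, limma adjusted p = 0.0215). The call of *mrps33* was lost without control MO replicate 1 (0.29, limma adjusted p = 0.0566) or 3 (0.28, 0.0605), and that of *mrps18a* without replicate 1 or 3 of either group (0.14 to 0.16, limma adjusted p from 0.059 to 0.0693). Moved to the large subunit, with *mrps36* left out, they changed the counts to 8 lower and 14 higher of 48 for the large subunit and to 6 lower and 4 higher of 25 for the small subunit, whose median became -0.10.

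On the other side, *mrps22* had the lowest log2 fold change of the small subunit. Its product is a mitochondria-specific protein of the subunit body, and inherited defects of the human gene impair the respiratory chain. Levels were 16.24, 15.43 and 17.54 FPKM with the control MO and 11.30, 11.48 and 10.59 FPKM with the *nlrc3* MO. All *nlrc3* MO samples were lower, the log2 fold change was -0.56 (SE 0.067, limma adjusted p = 2.28e-04), and it stayed below 0 under each scaling, from -0.93 under TPM scaling to -0.34 under the median of ratios.

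The other small subunit genes that fell did so by less. *mrps26*, another mitochondria-specific protein of the body, was at 17.72, 15.44 and 16.20 FPKM against 13.36, 13.32 and 12.30 FPKM, with no overlap (-0.34, limma adjusted p = 0.0037, against -0.12 and no pass under the median of ratios). *mrps23* was at 8.67, 10.24 and 10.02 FPKM against 6.74, 8.48 and 8.23 FPKM (-0.30, limma adjusted p = 0.0439). *mrps9*, a protein of the head, was at 14.82, 14.17 and 15.04 FPKM against 11.62, 13.86 and 11.80 FPKM (-0.24, limma adjusted p = 0.0285). In *mrps23* and *mrps9* the highest *nlrc3* MO sample lay just under the lowest control MO sample. Neither call held when single samples were left out: *mrps23* lost it without control MO replicate 2 (-0.26) or 3 (-0.27) and without *nlrc3* MO replicate 1 (-0.20) or 3 (-0.34), and *mrps9* without replicate 1 (-0.24 and -0.20) or 3 (-0.22 and -0.21) of the control MO and *nlrc3* MO groups. *mrps25* and *mrps17* fell by 0.23 and by 0.22. Under the median of ratios *mrps23*, *mrps9*, *mrps25* and *mrps17* were at -0.088, -0.027, -0.020 and -0.00076, and none passed. For *mrps24* the groups overlapped, at 32.64, 36.24 and 30.41 FPKM against 24.62, 31.73 and 28.03 FPKM, and the difference did not pass (-0.24, limma adjusted p = 0.073 though it did without *nlrc3* MO replicate 2, at -0.33 and 0.0201).

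The paralogs *mrps18a*, *mrps18b* and *mrps18c*, which descend from a single bacterial ribosomal protein, were measured apart. Beside *mrps18a*, *mrps18c* was at 35.57, 31.84 and 34.39 FPKM against 32.61, 32.00 and 33.27 FPKM (log2 fold change -0.06, limma adjusted p = 0.363). *mrps18b* was at 27.08, 23.00 and 28.02 FPKM against 21.80, 22.40 and 25.43 FPKM (-0.16, limma adjusted p = 0.15 and, without control MO replicate 2, -0.25 and 0.0322). For both of these the groups overlapped, and the differences between the paralogs were not tested. Among the most abundant small subunit genes, *mrps11*, which lies on the platform of the subunit, was at 37.53, 34.86 and 41.18 FPKM against 39.19, 39.58 and 39.00 FPKM, and the *nlrc3* MO samples lay inside the control MO range (0.06, 95% interval -0.09 to 0.20, limma adjusted p = 0.449).

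In the large subunit the lowest log2 fold changes belonged to *mrpl23*, *mrpl37* and *mrpl38*. *mrpl23* encodes a counterpart of a bacterial protein at the mouth of the exit tunnel and was at 38.10, 37.91 and 39.38 FPKM with the control MO and at 26.94, 26.79 and 23.45 FPKM with the *nlrc3* MO. The *nlrc3* MO samples were all far below the control MO samples, with a log2 fold change of -0.58 (SE 0.060, limma adjusted p = 9.97e-05). *mrpl37*, a mitochondria-specific protein, was at 29.28, 35.89 and 34.18 FPKM against 23.44, 23.81 and 21.55 FPKM (-0.52, SE 0.081, limma adjusted p = 8.81e-04). *mrpl38*, a mitochondria-specific protein of the central protuberance, was at 43.55, 46.76 and 46.13 FPKM against 32.58, 34.36 and 31.88 FPKM (-0.46, SE 0.046, limma adjusted p = 7.60e-05). In these 2 genes, too, no *nlrc3* MO sample reached a control MO sample. Under the median of ratios, the scaling least favourable to a fall, the log2 fold changes of *mrpl23*, *mrpl37* and *mrpl38* were -0.36, -0.31 and -0.25 and each still passed.

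The gene with the lowest level of all members, *mrpl22*, whose product lines the exit tunnel, was at 4.05, 4.11 and 4 FPKM against 2.68, 3.11 and 3.04 FPKM. It was lower in all *nlrc3* MO samples (-0.45, limma adjusted p = 0.0064), and did not pass under the median of ratios (-0.24, adjusted p = 0.0728). *mrpl33* was at 12.80, 17.32 and 16.87 FPKM against 13.21, 11.01 and 10.85 FPKM (-0.41, limma adjusted p = 0.0266). In *mrpl33* the groups overlapped, since control MO replicate 1 lay below *nlrc3* MO replicate 1. The call of *mrpl33* was lost without replicate 2 or 3 of either group (-0.37 to -0.33, limma adjusted p from 0.0776 to 0.0916). The other large subunit genes that fell were *mrpl28*, *mrpl2* and *mrpl21*, with log2 fold changes of -0.28, -0.16 and -0.15. Under the median of ratios these were -0.065, 0.058 and 0.063, and none passed. In the available zebrafish gene table, of a different assembly from that of the files, 23 of the 73 members with a single entry overlap another gene. Since strand was not stated for the counting, reads of such partners cannot be told apart from those of the member. Of the members past the threshold, those with such a partner were *mrpl37*, *mrpl22*, *mrpl33*, *mrpl2*, *mrps22*, *mrps26*, *mrps23* and *mrps17* among the genes that fell, and *mrpl34*, *mrpl16*, *mrpl47* and *mrpl11* among those that rose. *mrps15*, *mrpl23* and *mrpl38* had none, and *mrps36* had no single entry.

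The 5 highest log2 fold changes of the large subunit were all modest, and each of them turned below 0 under TPM scaling. *mrpl34* was at 29.12, 25.48 and 26.32 FPKM against 35.81, 34.43 and 34.49 FPKM (log2 fold change 0.37, limma adjusted p = 7.79e-04). *mrpl16*, which lies by the peptidyl transferase site, was at 16.32, 18.50 and 18.74 FPKM against 22.03, 22.95 and 24.11 FPKM (0.37, limma adjusted p = 0.00215). In both genes every *nlrc3* MO sample was above every control MO sample. *mrpl47*, at the exit tunnel, was at 26.07, 24.55 and 24.78 FPKM against 28.65, 32.50 and 32.13 FPKM (0.30, limma adjusted p = 0.00284). *mrpl10*, which anchors the stalk that recruits translation factors, was at 14.79, 14.61 and 14.64 FPKM against 18.28, 17.22 and 18.08 FPKM (0.28, limma adjusted p = 0.00154). The groups stood apart in these as well, most evenly in *mrpl10*, whose control MO samples were nearly identical. *mrpl52* was at 18.47, 15.91 and 16.12 FPKM against 18.09, 21.47 and 23.77 FPKM (0.32, limma adjusted p = 0.0321). Its groups overlapped through *nlrc3* MO replicate 1, and the call was lost without replicate 2 or 3 of either group (0.23 to 0.30, limma adjusted p from 0.0831 to 0.1).

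Of the most abundant large subunit genes, *mrpl38* is described above. *mrpl13*, the member with the highest level, was at 51.32, 58.34 and 60.30 FPKM against 67.41, 58.90 and 62.88 FPKM, and with overlapping groups the difference did not pass (log2 fold change 0.16, 95% interval -0.01 to 0.32, limma adjusted p = 0.0955). *mrpl30* was at 54.81, 54.43 and 57.64 FPKM against 60.41, 66.00 and 60.81 FPKM, without overlap (0.16, limma adjusted p = 0.0144). Without control MO replicate 1 or 2 its log2 fold change was 0.15 and just missed the threshold (limma adjusted p = 0.0509 and 0.0516). Of the 3 large subunit genes with the highest levels, *mrpl38* alone fell on FPKM as deposited. Under TPM scaling *mrpl13* (-0.22, limma adjusted p = 0.0214) and *mrpl30* (-0.21, limma adjusted p = 0.0047) were lower as well. The other large subunit genes that rose were *mrpl48*, *mrpl35*, *mrpl11*, *mrpl14*, *mrpl39* and *mrpl36*, with log2 fold changes from 0.16 to 0.26. Under TPM scaling all of them turned below 0, from -0.22 to -0.12. There *mrpl11*, *mrpl14*, *mrpl39* and *mrpl36* passed as lower, and *mrpl48* and *mrpl35* did not pass.

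When the members were arranged by origin, the genes with a bacterial counterpart and the mitochondria-specific genes had nearly the same median. Of 46 genes with a bacterial counterpart, 8 were lower and 13 higher, with a median log2 fold change of -0.013. Of 27 mitochondria-specific genes, 6 were lower and 5 higher, with a median of -0.016. The small subunit by symbol held 10 mitochondria-specific genes, counting *mrps30*. Of these 10, 4 were lower and 2, *mrps30* being 1 of the 2, were higher (median -0.13). Of the 17 with a bacterial counterpart, 2 were lower and 4 higher (median -0.055). The shares of the 10 genes, 40% and 20%, were near those of all tested genes, 42.9% lower and 20.2% higher. Under the median of ratios 1 of the 10 was lower and 3 higher, and 0 of the 17 lower and 7 higher. The differences between these groups were not tested.

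By their place in the ribosome, as known from mammalian structures, the lowest median belonged to the body of the small subunit, where 4 of 7 genes were lower and none higher (median -0.22). These 4 were *mrps22*, *mrps26*, *mrps25* and *mrps17*, and under the median of ratios only *mrps22* still passed as lower while 1 of the 7 was higher. In the head, 1 of 8 genes was lower and 3 higher (median -0.069). The proteins of the stalk region, *mrpl10*, *mrpl11* and *mrpl12*, had the highest median, 0.23, with 2 of 3 higher, a median that was -0.15 under TPM scaling. At the exit tunnel 2 of 8 genes were lower and 1 higher (median 0.053), so that *mrpl23* and *mrpl22* fell while *mrpl47* rose. In the central protuberance 1 of 7 was lower and 1 higher, and around the peptidyl transferase site 1 of 3 was lower and 1 higher. The median over all tested genes, -0.22, was as low as that of the small subunit body, and the differences between these groups were not tested. Over all tested genes 42.9% were lower and 20.2% higher.

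**Figure D4:**
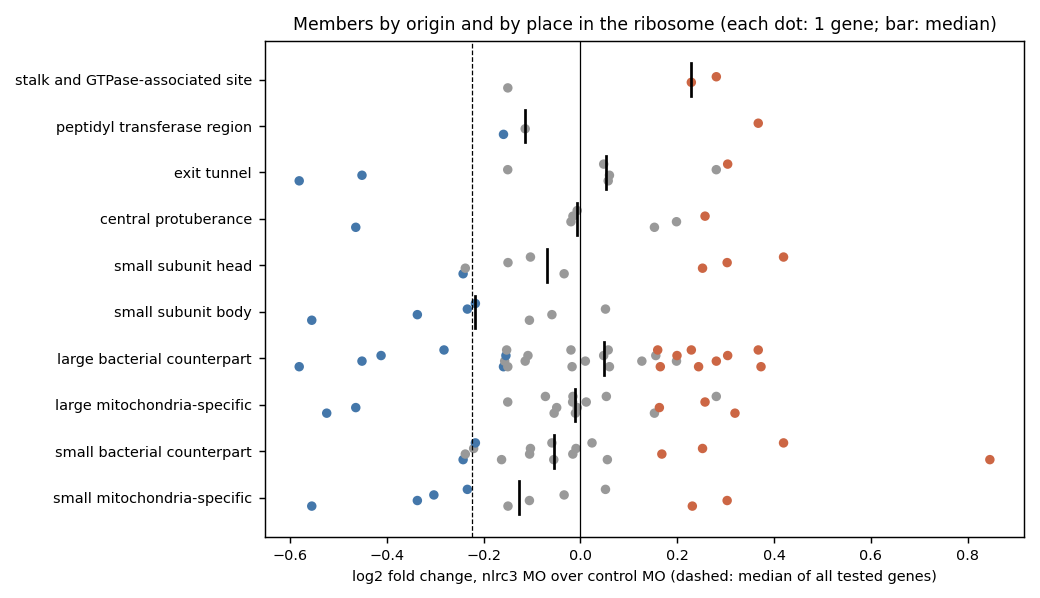
Log2 fold change of each member (dots) by origin within each subunit and by place in the ribosome, with the median of each group as a bar; dots are coloured where the adjusted p was under 0.05, higher or lower. The dashed line is the median of all tested genes, -0.22; the body of the small subunit has its median there, and every other group has its median to the right of it.

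Mitochondrial ribosome proteins that carry other names were measured too. *dap3*, a GTP-binding protein of the small subunit, was at 29.95, 30.03 and 28.20 FPKM against 30.80, 33.24 and 35.02 FPKM and was higher (log2 fold change 0.17, limma adjusted p = 0.0349), a call that was lost with the globin genes taken out. *gadd45gip1*, *aurkaip1*, *chchd1* and *ptcd3* did not pass, at log2 fold changes from -0.14 to 0.023. Under TPM scaling all 5 of these genes, *dap3* included, were lower, where 64.1% of all tested genes were lower. Under the median of ratios 0 of the 5 were lower and 2 higher. *MRPL49* was at 27.69, 29.46 and 25.94 FPKM against 30.56, 31.15 and 26.72 FPKM, and *MRPS12* at 22.22, 20.22 and 22.73 FPKM against 21.44, 22.41 and 21.98 FPKM. The groups overlapped for both (0.09, limma adjusted p = 0.325, and 0.016, adjusted p = 0.818). Both passed as lower under TPM scaling and as higher under the median of ratios.

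Assembly factors help the ribosomal RNA and proteins of the mitochondrion come together. Of 21 assembly factors tested, 4 were lower and 3 higher, with a median of -0.028. These shares, 19% and 14.3%, compare with 42.9% and 20.2% of all tested genes. The GTPase gene *noa1*, needed for assembly of the small subunit, was at 7.33, 5.88 and 6.12 FPKM against 3.45, 3.81 and 3.84 FPKM (-0.78, limma adjusted p = 5.51e-04). Its *nlrc3* MO samples lay far below its control MO samples, as did those of *mettl17* at 7.62, 7.65 and 7.03 FPKM against 5.27, 4.87 and 5.14 FPKM (-0.54, limma adjusted p = 6.36e-04). *c1qbp*, the most abundant of this list, was at 129.24, 126.40 and 130.36 FPKM against 149.37, 155.44 and 160.68 FPKM and rose (0.27, limma adjusted p = 2.37e-04), and *ybey*, the next in level, did not pass (-0.028, adjusted p = 0.81). Under the median of ratios 2 assembly factors were lower and 5 higher, and under TPM scaling 14 were lower and none higher.

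Among 16 mitochondrial translation factors, 1 was lower and 1 higher (6.25% each, where 42.9% and 20.2% of all tested genes were). These were *lrpprc*, which binds mitochondrial mRNA, and *slirp*, its partner. Under TPM scaling 9 of the 16 were lower and 0 higher, and under the median of ratios 1 was lower and 10 higher. *lrpprc* was at 31.04, 30.95 and 29.78 FPKM against 21.49, 24.30 and 21.29 FPKM (-0.45, limma adjusted p = 3.72e-04), whereas *slirp* was at 85.46, 77.68 and 74.54 FPKM against 96.29, 105.29 and 107.88 FPKM (0.38, limma adjusted p = 0.0011). The products of these genes form a complex, and their transcripts moved in opposite directions on FPKM as deposited. The elongation factor gene *tufm* was at 59.43, 58.05 and 56.09 FPKM against 56.57, 58.83 and 59.88 FPKM and did not pass (0.014, adjusted p = 0.761).

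Of 17 genes for mitochondrial aminoacyl-tRNA synthetases and the related amidotransferase, 4 were lower and 5 higher. These shares, 23.5% and 29.4%, compare with 42.9% and 20.2% of all tested genes. Under TPM scaling 9 were lower and 0 higher, and under the median of ratios 2 were lower and 5 higher. *wars2*, the tryptophanyl-tRNA synthetase, was called lower on FPKM as deposited with a change beyond 2-fold, at 4.44, 5.16 and 3.76 FPKM against 2.45, 1.64 and 1.79 FPKM (-1.15, limma adjusted p = 0.00106). By this rule 20.4% of all tested genes were called lower. The median of all tested genes moved from -0.22 to -0.013 under the median of ratios, so a call this close to the 2-fold limit can turn with the scaling. The amidotransferase subunit gene *gatc*, the most abundant of the list, was at 11.42, 9.5 and 11.02 FPKM against 8.11, 8.09 and 9.01 FPKM (-0.34, limma adjusted p = 0.0129). *yars2*, next in level, did not pass (-0.12, adjusted p = 0.232).

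Of 13 genes for mitochondrial DNA upkeep and transcription and for the nuclear factors that control mitochondrial genes, 6 were lower and 1 higher. The share of lower genes, 46.2%, was near the 42.9% of all tested genes, and 7.69% were higher against 20.2%. Under TPM scaling 11 were lower and 0 higher, and under the median of ratios 2 were lower and 4 higher. The most abundant, *tfam*, which packages mitochondrial DNA, was at 38.67, 38.41 and 41.56 FPKM against 39.53, 39.56 and 39.16 FPKM, without a detectable difference (-0.0038, limma adjusted p = 0.942). *nrf1*, a transcription factor known to bind promoters of many nuclear genes for mitochondrial proteins in mammals, was at 27.17, 31.18 and 30.02 FPKM against 14.95, 17.31 and 14.90 FPKM (-0.90, limma adjusted p = 3.87e-05). *gabpa*, another such factor, was at 22.70, 23.93 and 24.63 FPKM against 20.51, 20.85 and 21.18 FPKM (-0.19, limma adjusted p = 0.0102). The *nlrc3* MO samples of both factors were all below the control MO samples, as held for 46.1% of all tested genes. The log2 fold change of *gabpa* was near the median of all tested genes, -0.22. Any part of these factors in the levels of the members was not tested.

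The other large groups of ribosomal and mitochondrial genes are set beside the members as a description. Of 84 cytosolic ribosomal protein genes, 11 were lower and 45 higher (median log2 fold change 0.081), and of 98 tested genes of the respiratory chain and its assembly, 12 were lower and 50 higher (median 0.18). Under TPM scaling these turned to 80 lower and 0 higher (95.2% lower, against 64.1% of all tested genes), and to 50 lower and 11 higher (51% lower). In the respiratory chain list, on FPKM as deposited, the assembly factor gene *ndufaf5* was called lower (8.07 to 3.81 FPKM in the group means, log2 fold change -1.06, limma adjusted p = 1.18e-04) and *cox5b2*, a subunit gene of cytochrome c oxidase, called higher (3.60 to 8.37 FPKM, 1.2, limma adjusted p = 5.89e-05). Over all tested genes 20.4% were called lower and 4.89% higher. Both calls lie close to the 2-fold limit and can turn with the scaling. The most abundant genes of that list, *atp5f1b* and *atp5fa1* of ATP synthase, differed by 0.16 and 0.19 on the log2 scale. The 13 protein genes of the mitochondrial genome, which are what the mitochondrial ribosome translates, had 7 lower and 2 higher (53.8% and 15.4%, median -0.22). Over all tested genes 42.9% were lower and 20.2% higher, and the median was -0.22 as well. Under the median of ratios 4 of the 13 were lower and 6 higher. The summed level of the 13 genes overlapped between the groups at 21508.7 to 21712.3 FPKM and 20606.3 to 21704.3 FPKM. Of 22 import genes 5 were lower and 5 higher (median 0.016), against 15 lower and 2 higher under TPM scaling. The medians of the large and the small mitochondrial ribosomal subunits lay between those of the mitochondrial genome and of the respiratory chain.

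**Figure D5:**
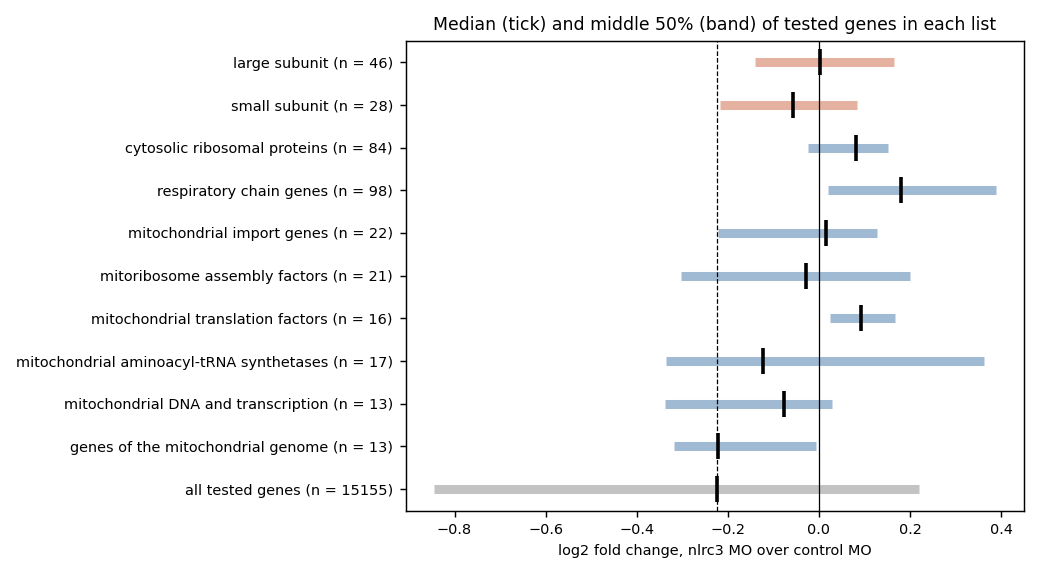
Median (tick) and middle 50% (band) of the log2 fold change for the members, for other lists of ribosomal and mitochondrial genes and for all tested genes, with the number of tested genes of each list. Values are on FPKM as deposited. The dashed line is the median of all tested genes, -0.22, and the respiratory chain lies highest with a median of 0.18. The mitochondrial ribosomal proteins lie near 0 in a band much narrower than that of all tested genes. Those of the cytosolic ribosomal proteins and the mitochondrial translation factors are narrower still.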

How the data were processed

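Single-end reads came from sorted EGFP+ cells of 3 control MO and 3 *nlrc3* MO samples, grouped by their labels. Per the methods, the authors' steps were Cutadapt for trimming, HISAT2 for alignment against zebrafish (Ensembl), then StringTie for transcript assembly, and FPKM came from StringTie with ballgown. The submitters' processing notes instead name CASAVA 1.8, Bowtie 0.12.2 and the mouse build mm8, and this was not resolved. The table deposited by the authors holds 32057 genes, with FPKM given to 2 decimals. The authors' own fold changes, their log2 values, p-values and q-values in the same table were not used. Column names were matched to samples through the headings of the authors' source data.

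From the deposited FPKM, log2(FPKM + 0.1) was fitted with limma 3.58.1 in R 4.3.3 (lmFit, eBayes with trend, two-sided) for genes of at least 0.5 FPKM in at least 3 samples, with no further scaling and Benjamini-Hochberg adjustment over 15155 genes. No read totals accompany the FPKM and no whole-read steps were seen among low values, so the depth is unknown and precision rests on 3 replicates per group. The fit was tested on simulated data. Named genes were those called, the 5 lowest and 5 highest log2 fold changes and the 3 highest control MO levels in each subunit, the *mrps18* paralogs and *mrps30*, and in other lists the called genes and the 2 most abundant. *noa1*, *mettl17*, *lrpprc*, *slirp*, *nrf1*, *gabpa*, *dap3* and the remaining members past the threshold were named after their values were seen. The members and lists were chosen with earlier results of these data known. Alternatives were 3 other scalings, pseudocounts of 1 and 0.01, no filter or 1 FPKM, eBayes without trend, a replicate block, each sample left out, subunits by structure and the names in capitals (added after seeing the data). Figures were drawn with matplotlib 3.10.9 (Python 3.11.15, numpy 2.4.6, pandas 2.3.3). Sequences and coordinates are not used here.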

Additional observations from a re-analysis of the deposited data

How the results depend on the processing

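Scaling moved the results most. Under TPM scaling the median log2 fold change was -0.37 for the large and -0.43 for the small subunit, with 36 lower and 0 higher in the large and 22 lower and 1 higher in the small subunit. The sign of 12 named genes turned, to -0.095 (*mrpl10*), -0.22 (*mrpl13*), -0.0091 (*mrpl16*), -0.21 (*mrpl30*), -0.0040 (*mrpl34*), -0.073 (*mrpl47*), -0.057 (*mrpl52*), -0.12 (*mrps10*), -0.32 (*mrps11*), -0.21 (*mrps18a*), -0.15 (*mrps30*) and -0.072 (*mrps33*). Under the median of ratios the medians were 0.22 and 0.16, with 3 lower and 24 higher in the large and 1 lower and 11 higher in the small subunit, 1 member (*mrps15*) passed the 2-fold limit, and *mrps18b* (0.053) and *mrps18c* (0.16) turned positive. Subunits assigned by structure gave the small subunit a median of -0.10 and 4 higher genes. eBayes without trend left 9 members lower and 14 higher, against 14 and 19 in the main fit, with 3 lower genes in the small subunit. Among the 27 members named by the rule, *mrpl30*, *mrpl33*, *mrpl52*, *mrps18a*, *mrps23* and *mrps9* lost their call there. Without a filter, 11 members were lower and 18 higher, and of the 27 members named by the rule *mrps23* alone lost its call. With single samples left out, the small subunit had 3 to 7 lower genes, and 3 of them without control MO replicate 3 or without *nlrc3* MO replicate 3. Without control MO replicate 2, *mrps11* was at -0.0021, and without the other samples at up to 0.12. The pseudocounts, the filter at 1 FPKM and leaving out the globin genes changed no call among the 27 members named by the rule, whereas *dap3*, which is no member, lost its call without the globin genes and *mrpl12* came to pass (-0.16, limma adjusted p = 0.0475).

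No pairing by replicate number was seen over all tested genes. Same-numbered samples had correlations of their deviations of 0.0041, 0.040 and -0.0034, and differently numbered samples from -0.035 to 0.035. Such values over all genes cannot show whether samples shared a clutch. A replicate block gave 6 lower and 11 higher large subunit genes, against 8 and 12 without it. For the small subunit it gave 5 lower and 7 higher genes, against 6 and 7. Among the 27 members named by the rule, *mrpl33*, *mrpl52* and *mrps9* no longer passed and *mrps24* passed. Members outside these 27 changed call as well. Read depth is unknown, so that a difference in a gene such as *mrpl22*, with the lowest level, cannot be given a counting error.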
